A study of Mus musculus with 6 samples.

Results

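Primitive endoderm is the epithelium that forms on the surface of the inner cell mass of the blastocyst and later gives rise to visceral and parietal endoderm, the layers that line the yolk sac. 9 genes of this lineage were followed, of 52870 gene rows in the files: the transcription factor genes Gata4, Gata6, Foxa2 and Hnf4a, the endocytic receptor and adaptor genes Lrp2, Cubn, Amn and Dab2, and the growth factor receptor gene Pdgfra. They were chosen by name, as known markers of the lineage, but with earlier results of these data known. Their counts beside those of all genes are therefore a description. All 9 symbols matched 1 Ensembl gene each in GENCODE M21 on GRCm38. Transcripts had been sequenced from 6 libraries of mouse embryonic stem cells of the C57BL/6 strain, 3 of the genotype Rbbp4F/F, which serve as the control, and 3 of the genotype Rbbp4-/-, the knockout. No agent, time point or further allele is named for either group. How the floxed allele was deleted, whether a group is 1 clone and whether its libraries came from separate cultures is not given in the sources used here. The p-values therefore reflect how far these libraries differ from each other, a spread that may be technical.

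In the embryo, FGF signalling and Gata6 direct inner cell mass cells towards primitive endoderm, while Nanog marks the cells that stay pluripotent. Gata4, Foxa2 and Hnf4a act as the layer forms and matures, and Pdgfra, a receptor for PDGF ligands, is one of its early surface markers. Visceral endoderm feeds the embryo by taking up maternal proteins: Lrp2 (megalin) and Cubn (cubilin) are giant receptors on its apical membrane, Amn (amnionless) carries cubilin to that membrane and anchors it, and Dab2 links the receptor tails to clathrin. Rbbp4 encodes a histone-binding subunit shared by several chromatin complexes, among them PRC2, NuRD and CAF-1.

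The values are FPKM, that is, fragment numbers divided by the length of the transcript and by library size. They allow genes to be compared, but libraries only as far as their composition is alike. FPKM sums were 790121 to 800146 in the control libraries and 697933 to 737123 in the knockout libraries, and results under other scalings are given below. Depth was estimated from the spacing of low values at 25600000 to 28900000 fragments per library. Rbbp4 (chromosome 4, 129307100 to 129335370, minus strand) fell from 59.1 ± 2.44 to 15.03 ± 5.47 FPKM (SD, n = 3), which left 25.5% of the control mean in the knockout libraries (limma adjusted p = 0.00209). Its knockout values were 21.3, 12.7 and 11.1 FPKM. Antisense exons of Sync and Gm26722 cover 8.9% and 9.1% of its exonic length. The labels do not say which exons are deleted, so a value over the whole gene checks the labels only in part. Knockout replicate 1, with the most Rbbp4 transcript, stood apart from the other knockout libraries on the second principal component, and results that change without it are given with and without it.

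Of the 9 genes, 7 were higher in every knockout library than in any control library, Amn overlapped between the groups, and Hnf4a was listed at 0 in all 6 libraries. Among all 26853 genes with a value above 0 in at least 1 library, 28.5% had every knockout library above every control library. In a limma fit over those 26853 genes on log2(FPKM + 1), 6 of the 8 detected members were called higher in the knockout (Gata4, Gata6, Foxa2, Lrp2, Cubn and Pdgfra) at a Benjamini-Hochberg adjusted p below 0.05. None was called lower, and none was lower at an unadjusted limma p below 0.05. Of all tested genes, 19.9% were called higher and 10.7% lower. The median log2 fold change was 0.67 over the 8 members and 0.04 over all tested genes. Because the fit adds 1 FPKM to every value, its fold changes understate those of weakly expressed genes, which most members are. Ratios of mean FPKM are therefore given beside them. In bulk libraries a larger share of cells with a transcript cannot be told apart from more transcript per cell.

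**Figure D1:**
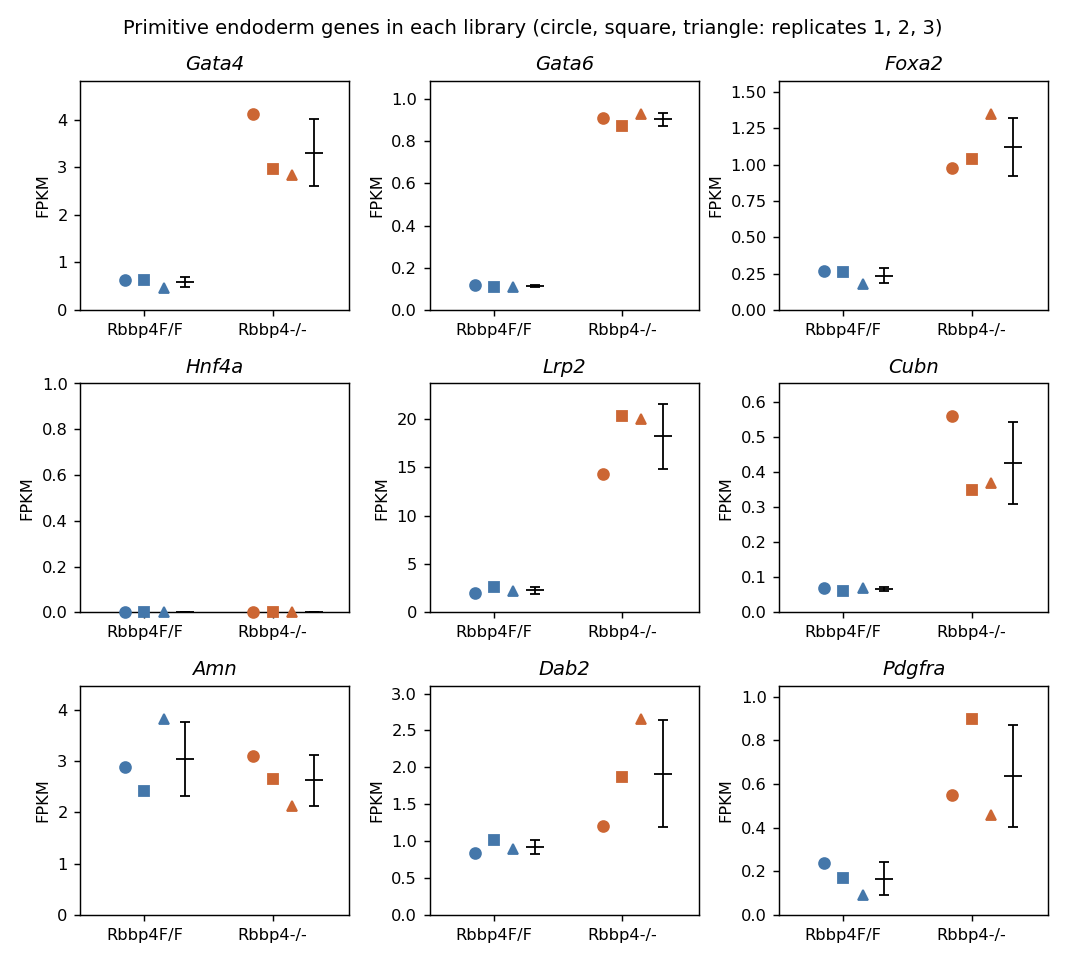
FPKM of each of the 9 genes in the 3 control and 3 knockout libraries, with a circle, square and triangle for replicates 1, 2 and 3 and the mean ± SD beside them, 1 panel per gene with its own linear axis. The points of 7 genes are separated between the groups, those of Amn overlap, and Hnf4a lies at 0 in all 6 libraries.

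Among the transcription factors, Gata4, Gata6 and Foxa2 rose from low levels and Hnf4a was not detected. Gata4 (ENSMUSG00000021944, chromosome 14, 63198922 to 63271692, minus strand) encodes a zinc-finger factor whose forced expression is enough to turn embryonic stem cells into primitive endoderm-like cells. Control replicates 1 to 3 gave 0.64, 0.64 and 0.46 FPKM, and knockout replicates 1 to 3 gave 4.13, 2.96 and 2.85 FPKM. Every knockout library was several times above every control library, and knockout replicate 1 was the highest. The mean rose from 0.580 ± 0.104 to 3.31 ± 0.709 FPKM, a 5.71-fold ratio (limma adjusted p = 0.00273, with a log2 fold change of 1.44 and an SE of 0.18).

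Gata6 (ENSMUSG00000005836, chromosome 18, 11052064 to 11085635, plus strand) encodes the related factor that acts first in the lineage. Its control values were 0.12, 0.11 and 0.11 FPKM and its knockout values 0.91, 0.87 and 0.93 FPKM. The libraries of each group were almost level and the groups lay far apart, with knockout replicate 1 in the middle of its group. The mean rose 7.97-fold, from 0.113 ± 0.00577 to 0.903 ± 0.0306 FPKM (limma adjusted p = 0.000784, with a log2 fold change of 0.77 and an SE of 0.06). On the longest annotated transcript the control values correspond to about 10 to 12 fragments per library and the knockout values to 84 to 88, so the control level rests on few fragments. An antisense gene, 1010001N08Rik, covers 1.4% of the exonic length of Gata6, and nothing in the sources used here says whether counting used strand.

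Foxa2 (ENSMUSG00000037025, chromosome 2, 148042877 to 148046969, minus strand) encodes a forkhead factor of visceral endoderm that is also used by definitive endoderm, notochord and floor plate. Its control values were 0.27, 0.26 and 0.18 FPKM, against 0.98, 1.04 and 1.35 FPKM in the knockout. The groups did not overlap, and here knockout replicate 3 was the highest. The mean rose 4.75-fold, from 0.237 ± 0.0493 to 1.12 ± 0.199 FPKM (limma adjusted p = 0.00356, with a log2 fold change of 0.78 and an SE of 0.11). Hnf4a (ENSMUSG00000017950, chromosome 2, 163506808 to 163572910, plus strand), a nuclear receptor gene of mature visceral endoderm, was listed at 0 throughout. On its longest transcript of 4362 nucleotides a count of 0 allows up to 3 fragments, or 0.0286 FPKM in the shallowest library, a limit that covers counting error only. Of 142 genes of the ribosome, proteasome, RNA polymerase II and ATP synthase, none was at 0 in all libraries and 1 was at 0 in at least 1. Over all genes, however, 286 were at 0 in 1 library or more and at 10 FPKM or more in another, so a listed 0 is not always a low level. Summed over the 4 factor genes, the level was 0.75 to 1.03 FPKM in the controls and 4.87 to 6.02 FPKM in the knockout libraries.

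Of the receptor genes, Lrp2 and Cubn rose, and Amn, whose product forms 1 complex with cubilin, did not pass the test. Whether Amn differed from the others in its change was not tested. The 95% interval of its log2 fold change overlaps that of Cubn where 1 FPKM is added, which understates the change of the scarce Cubn. With 0.1 FPKM added instead and no filter, the log2 fold changes were 2.94 (SE 0.19) for Lrp2, 1.64 (SE 0.31) for Cubn and -0.20 (SE 0.25) for Amn. The 250 bases before the RefSeq start of these 3 genes (GRCm38.p6, gene strand, 5′ to 3′) are printed to set the promoters of these partner receptors side by side. Capitals mark CpG dinucleotides. The stretches are chr2:69586030-69586279 on the minus strand for Lrp2, chr2:13491877-13492126 on the minus strand for Cubn and chr12:111270846-111271095 on the plus strand for Amn.
Lrp2: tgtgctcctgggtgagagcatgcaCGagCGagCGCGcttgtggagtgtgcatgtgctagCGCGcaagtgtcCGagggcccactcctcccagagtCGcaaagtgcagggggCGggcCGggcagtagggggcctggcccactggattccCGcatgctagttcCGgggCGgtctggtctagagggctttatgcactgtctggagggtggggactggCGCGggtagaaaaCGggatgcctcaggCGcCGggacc
Cubn: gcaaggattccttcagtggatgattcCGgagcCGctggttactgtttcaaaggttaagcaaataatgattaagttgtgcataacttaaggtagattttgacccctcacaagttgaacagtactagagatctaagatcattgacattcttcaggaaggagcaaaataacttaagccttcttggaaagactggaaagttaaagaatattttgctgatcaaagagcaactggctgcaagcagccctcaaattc
Amn: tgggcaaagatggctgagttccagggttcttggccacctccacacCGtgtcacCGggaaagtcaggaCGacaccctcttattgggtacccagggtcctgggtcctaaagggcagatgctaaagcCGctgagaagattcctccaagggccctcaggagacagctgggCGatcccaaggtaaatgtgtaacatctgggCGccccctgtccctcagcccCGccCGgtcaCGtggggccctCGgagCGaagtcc

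The Lrp2 stretch held 18 CpG dinucleotides and 66.4% G or C, that of Amn 11 and 61.2%, and that of Cubn 2 and 39.6%. The medians over 27025 RefSeq promoters of the same length were 6 CpG dinucleotides and 52.0%. The 2 receptor genes that rose thus had the most CpG-rich and one of the most CpG-poor promoters of the 7 members with a promoter entry. The ratio of observed to expected CpG was 0.685 for Lrp2, 0.47 for Amn, 0.376 for Foxa2, 0.237 for Dab2, 0.216 for Pdgfra, 0.206 for Cubn and 0.183 for Hnf4a, against a median of 0.378 over all promoters. The GATA-type letters AGATAA or TGATAA, read on both strands, stood in the Dab2 window (TGATAA) and the Hnf4a window (AGATAA) and in none of the other 5. Of all promoters of that length, 17.0% held either. TATAAA, also read on both strands, was in no member's window and in 13.0% of all. Only the first RefSeq start listed for each gene was read, so other starts of these genes are not covered. The RefSeq start used for Cubn lies outside its GENCODE M21 gene.

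**Figure D2:**
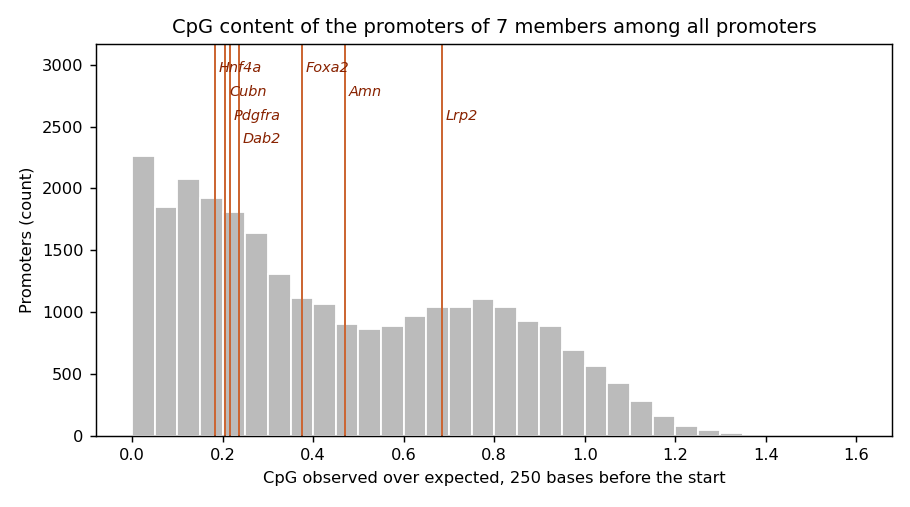
Distribution of the ratio of observed to expected CpG over 27025 RefSeq promoters, each the 250 bases before the start, with the 7 members that have an entry marked. Lrp2 (0.685) and Amn (0.47) lie above the median of 0.378 and Cubn (0.206) below it.

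Lrp2 (ENSMUSG00000027070, chromosome 2, 69424340 to 69586065, minus strand, 80 merged exonic blocks) was the most abundant member in the knockout. The controls held 1.97, 2.63 and 2.21 FPKM, and the knockout libraries 14.27, 20.28 and 20 FPKM. Knockout replicate 1 was the lowest of its group and still several times above the highest control. The mean rose 8.01-fold, from 2.27 ± 0.334 to 18.2 ± 3.39 FPKM (limma adjusted p = 0.000431, with a log2 fold change of 2.54 and an SE of 0.17), the largest ratio among the 9 genes by a small margin over Gata6. The transcript is long, and these values correspond to about 865 to 1023 fragments per control library and 5896 to 8441 per knockout library, the best counted of the members.

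Cubn (ENSMUSG00000026726, chromosome 2, 13276338 to 13491813, minus strand, 66 merged exonic blocks), the partner receptor, was scarce in both groups. Its control values were 0.07, 0.06 and 0.07 FPKM and its knockout values 0.56, 0.35 and 0.37 FPKM. The groups did not overlap, and knockout replicate 1 was the highest, the reverse of its place for Lrp2. The mean rose 6.4-fold, from 0.0667 ± 0.00577 to 0.427 ± 0.116 FPKM (limma adjusted p = 0.00647, with a log2 fold change of 0.42 and an SE of 0.07). About 17 to 22 fragments per control library and 105 to 167 per knockout library lie behind these levels. The antisense gene Gm13270 covers 2.5% of the exonic length of Cubn.

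Amn (ENSMUSG00000021278, chromosome 12, 111271095 to 111276426, plus strand) was the most abundant member in the controls. The controls held 2.89, 2.41 and 3.83 FPKM, and the knockout libraries 3.11, 2.65 and 2.12 FPKM. The groups overlapped. The means were 3.04 ± 0.722 and 2.63 ± 0.495 FPKM (log2 fold change -0.15, 95% interval -0.65 to 0.35, limma adjusted p = 0.610), so the interval holds both a modest fall and a modest rise. In FPKM, which is per length, Amn exceeded Cubn in every library of either group.

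Dab2 (ENSMUSG00000022150, chromosome 15, 6299788 to 6440712, plus strand), the clathrin adaptor gene, had control values of 0.84, 1.02 and 0.9 FPKM and knockout values of 1.21, 1.87 and 2.66 FPKM. Every knockout library was above every control, but the knockout libraries were widely spread and replicate 1 lay near the controls. The means were 0.920 ± 0.0917 and 1.91 ± 0.726 FPKM, a ratio of 2.08 (log2 fold change 0.57, SE 0.22, 95% interval 0.03 to 1.11), which did not pass the test over all detected genes (limma adjusted p = 0.107). Without knockout replicate 1 it passed (adjusted p = 0.0252). Where only genes with at least 1 FPKM in 3 libraries were tested its adjusted p was 0.0438, but Dab2 meets that filter only through its knockout libraries, so the value is no further support. The processed pseudogene Gm18888 lies antisense over 2.9% of its exonic length.

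Pdgfra (ENSMUSG00000029231, chromosome 5, 75152292 to 75198215, plus strand), the receptor gene, had control values of 0.24, 0.17 and 0.09 FPKM and knockout values of 0.55, 0.9 and 0.46 FPKM. The groups did not overlap, although both were spread, and knockout replicate 2 was the highest. The mean rose 3.82-fold, from 0.167 ± 0.0751 to 0.637 ± 0.232 FPKM (limma adjusted p = 0.0275, with a log2 fold change of 0.48 and an SE of 0.12). The call was lost when control replicate 1, 2 or 3 was left out, with adjusted p = 0.0595, 0.0806 and 0.0943. The antisense genes Gm42802 and Gm42803 cover 4.5% and 1.7% of the exonic length of Pdgfra, and Mir7025 covers 0.3% on the same strand.

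The order of the members changed between the groups. In the controls, in FPKM, Amn and Lrp2 led with overlapping libraries, followed by Dab2 and Gata4, each separate from its neighbours. Foxa2, Pdgfra and Gata6 came next, with Pdgfra overlapping both Foxa2 and Gata6, and Cubn and Hnf4a were last. In the knockout libraries Lrp2 stood alone at the top, and Gata4, Amn, Dab2 and Foxa2 followed, each overlapping the next. Gata6 was separate from Foxa2 and overlapped Pdgfra, which overlapped Cubn. Lrp2 alone made up most of the summed level of the 4 endocytic genes in the knockout libraries, where the sum was 19.15 to 25.15 FPKM against 5.77 to 7.01 FPKM in the controls.

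**Figure D3:**
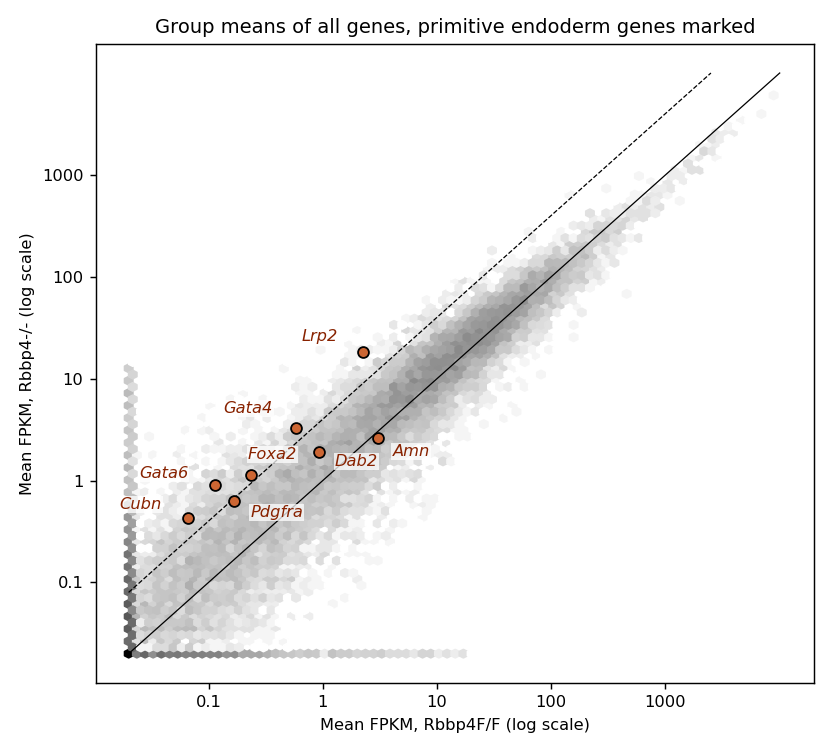
Mean FPKM in the control libraries against mean FPKM in the knockout libraries for all genes in the fit, on log axes, with darker grey where more genes lie and the members named. The solid line marks equal means and the dashed line a level 4-fold higher in the knockout, means under 0.02 FPKM are drawn at 0.02, and Hnf4a is not drawn. 5 members lie above the dashed line, Pdgfra and Dab2 lie between it and the solid line, and Amn lies just below equality.

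6 of the 9 genes had a control mean between 0.05 and 1 FPKM, a band set after the values were seen, and 5 of these 6 were called higher. Of all 6710 genes in that band, 17.3% were called higher and 3.98% lower. With a filter of at least 1 FPKM in 3 libraries, 4 members were tested, Gata4 and Dab2 among them only through their knockout libraries, so their calls there were partly set by the filter. Lrp2 (limma adjusted p = 6.52e-05), Gata4 (0.000404) and Dab2 were called higher and none lower (none at an unadjusted p below 0.05), while of all 13579 genes tested 36.7% were called higher and 22.5% lower. Nothing is read from the members' count in this fit. Scaling the libraries by median ratios moved the median log2 fold change of those 13579 genes from 0.17 to -0.04, by upper quartiles to -0.07, and by equal FPKM sums to 0.31. The same 6 members were called under each of these scalings in the fit without a filter. Over every alternative tried, the fitted log2 fold change of Lrp2 was 2.32 to 2.94, that of Gata4 1.29 to 2.32, that of Gata6 0.70 to 2.23, and that of Amn -0.35 to -0.02. The upper ends for Lrp2, Gata4 and Gata6 came from fits with 0.1 FPKM added in place of 1, which enlarges fold changes at low levels. With equal FPKM sums and 1 FPKM added, these 3 genes were at 2.67, 1.53 and 0.82.

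For the 4 members with at least 1 FPKM in 3 libraries, the genes with the most similar course over the 6 libraries were sought by the Euclidean distance between centred log2(FPKM + 1) values, as a description. Gata4 lay nearest to Arfgap2 (distance 0.0773), Pqlc2 (0.118) and Hoxa7 (0.15). Lrp2 lay nearest to Lats2 (0.204), Bmp1 (0.208) and Morc4 (0.214). Amn was nearest to C2cd5 (0.0966), Nbeal2 (0.142) and Tomm40l (0.15), and Dab2 to B3gnt5 (0.0869), Atp2b1 (0.0969) and Pnn (0.101). No member was among the nearest genes of another member. Only these 4 members could have been found, and their log2 fold changes of 1.44 (Gata4), 2.54 (Lrp2), -0.15 (Amn) and 0.57 (Dab2) already set them apart in this distance. Nothing is read from it about whether members move together.

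Other regulators of primitive endoderm mostly rose with the 3 factor genes. Of 11 genes, 8 rose, none fell and 3 did not pass the limma test, where 1 was lower at an unadjusted p below 0.05. The median log2 fold change was 0.53, against 0.04 over all tested genes. In this fit 19.9% of all tested genes were called higher and 10.7% lower, shares that stand beside the counts of every list below. Klf6, a zinc-finger factor gene, rose from 11.2 ± 0.513 to 89.4 ± 12.8 FPKM (adjusted p = 0.000168). Snai1, which represses E-cadherin, rose from 3.86 ± 0.391 to 8.89 ± 1.20 FPKM (adjusted p = 0.0033), and Fst, which encodes the activin-binding protein follistatin, from 0.790 ± 0.10 to 2.82 ± 0.556 FPKM (adjusted p = 0.00599). Sox7, Maf, Cited1 and Bmp2 were also among those that rose. Sox7, an F-group SOX factor gene, went from 0.260 ± 0.0458 to 0.817 ± 0.151 FPKM. Its relative Sox17 had control values of 1.77, 0.43 and 0.43 FPKM and knockout values of 1.38, 1.02 and 1.37 FPKM, so that 1 high control overlapped the knockout group (adjusted p = 0.447). Hhex was at 5.92 ± 0.516 and 4.32 ± 0.552 FPKM (adjusted p = 0.0826), and Rspo3 was close to 0 in both groups. Under median-ratio or upper-quartile scaling 7 genes of the list were higher and 1 lower, since Cited1 lost its call and Hhex was called lower, as it was without knockout replicate 1.

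**Figure D4:**
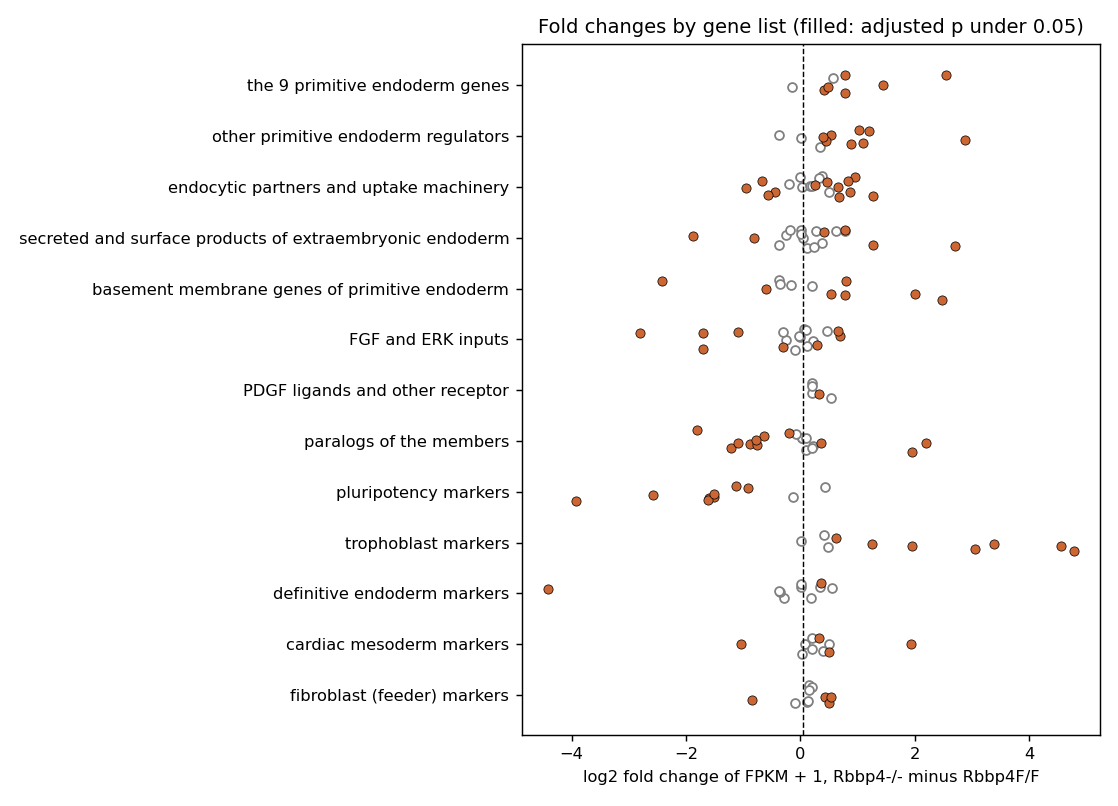
Log2 fold change (knockout minus control, on log2(FPKM + 1)) of every detected gene of the members and of each related list, 1 row per list and 1 point per gene, from the fit without a filter, filled where the adjusted p is under 0.05. The dashed line is the median of all tested genes (0.04). The points of the other primitive endoderm regulators lie mostly to its right, and those of the endocytic, product and signalling lists lie on both sides.

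The uptake machinery that these receptors use was mostly more abundant than the receptors and moved both ways. Of 20 partner and machinery genes, 8 rose, 4 fell and 8 did not pass the test, with a median log2 fold change of 0.29. All 20 also had at least 1 FPKM in 3 libraries. Among genes with that level, 9 of the 20 rose and 4 fell, where 36.7% of all rose and 22.5% fell. The median of all genes there was 0.17. These counts are near the shares of all genes, so nothing is read from them. The clathrin adaptor subunit genes Ap2m1, from 209.7 ± 28.4 to 500.7 ± 29.7 FPKM (limma adjusted p = 0.000998), and Ap2b1, from 88.7 ± 2.70 to 140.3 ± 6.55 FPKM (adjusted p = 0.000867), were among the 8. Cltb, a clathrin light chain gene, rose from 37.1 ± 4.29 to 68.4 ± 2.04 FPKM (adjusted p = 0.00158), and the others were Numb, Cltc, Rab5a, Rab7 and Ctsl. Lrpap1, whose product is the chaperone of megalin during its synthesis, fell from 99.0 ± 11.9 to 72.1 ± 1.36 FPKM (adjusted p = 0.0169), the opposite direction to Lrp2. The other genes that fell were Tfrc, the transferrin receptor gene, Ap2a1 and Cd320. The split of this list depends on scaling: 6 rose and 6 fell with median ratios, 6 and 7 with upper quartiles (where the sign of Rab7 turned and its call was lost), and 12 and 3 with equal sums, where Lrpap1 lost its call.

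Genes for the secreted and surface products of extraembryonic endoderm were called about as often as all tested genes. Of 20 genes, 4 rose, 2 fell, 12 did not pass the test, and Ttr and Apoa4 were listed at 0 in all libraries. The median log2 fold change was 0.17. Of all tested genes 19.9% rose and 10.7% fell. The counts of this list are near those shares, so nothing is read from them. Plat, the tissue plasminogen activator gene typical of parietal endoderm, rose from 0.273 ± 0.0635 to 2.07 ± 0.323 FPKM (limma adjusted p = 0.00162). Amot, which encodes an angiomotin of the apical junctions, rose from 2.85 ± 0.425 to 25.4 ± 9.97 FPKM (adjusted p = 0.00222), and Ihh and Ctsh rose at low levels. Apoe, an apolipoprotein gene that was abundant in the controls, fell from 1204 ± 57.1 to 338 ± 116 FPKM (adjusted p = 0.00246), and the transferrin gene Trf also fell. Afp, the classical secreted marker of visceral endoderm, had control values of 0, 0.02 and 0.12 FPKM and knockout values of 0.2, 0.1 and 0.1 FPKM, with overlapping groups (adjusted p = 0.213).

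Of 11 basement membrane genes that primitive endoderm uses, 5 rose, 2 fell and 4 did not pass the test, with a median log2 fold change of 0.20. Tested among genes with at least 1 FPKM in 3 libraries, 5 of the 11 rose and 3 fell, where 36.7% of all rose and 22.5% fell. The median of all genes there was 0.17. Nothing is read from the counts of this list, which are near those shares. Hspg2, the perlecan gene, rose from 68.7 ± 1.87 to 99.4 ± 2.46 FPKM (limma adjusted p = 0.00106), and Col4a2, a type IV collagen gene, from 8.38 ± 0.460 to 55.3 ± 23.8 FPKM (adjusted p = 0.00434). Col4a2 was at 27.77 FPKM in knockout replicate 1 and at 68.36 and 69.69 FPKM in replicates 2 and 3, all above the controls. The others that rose were Col4a1, Sparc and Serpinh1. The laminin chain gene Lama1 fell from 23.1 ± 0.994 to 3.65 ± 1.42 FPKM (adjusted p = 0.00091), and Lamc1 fell as well. With median-ratio or upper-quartile scaling, and without knockout replicate 1, Lamb1 and Nid2 were also called lower, giving 5 higher and 4 lower.

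In the FGF and ERK pathway, which directs cells into the lineage, 3 of 18 genes rose, 5 fell and 10 did not pass the test, with a median log2 fold change of -0.01. Of these genes, 16 had at least 1 FPKM in 3 libraries. Tested among genes with that level, 3 of the 16 rose and 5 fell, where 36.7% of all rose and 22.5% fell. The median there was -0.06 for the list and 0.17 for all genes. Nothing is read from these counts. Fgf4, the ligand that pluripotent cells supply, fell from 107.1 ± 9.32 to 14.4 ± 1.36 FPKM (limma adjusted p = 0.000148). The ERK feedback and target genes Spry4, from 31.7 ± 1.28 to 9.02 ± 0.355 FPKM (adjusted p = 0.000161), and Etv5, from 165.5 ± 7.25 to 50.7 ± 10.5 FPKM (adjusted p = 0.000812), fell too. The others that fell were Mapk3 and Fgfr1, and Ptpn11, Dusp4 and Spry2 rose, though Spry2 lost its call under median-ratio and upper-quartile scaling and Fgfr1 under equal sums. Fgfr2, the receptor gene that primitive endoderm favours, was at 14.8 ± 8.49 and 11.3 ± 1.98 FPKM (adjusted p = 0.652). Of the 4 PDGF ligand genes and the second receptor gene Pdgfrb, Pdgfd was called higher, from 0.0133 ± 0.0115 to 0.270 ± 0.0693 FPKM (adjusted p = 0.00499). The control values of Pdgfd were only 0.02, 0 and 0.02 FPKM, so the size of its rise is uncertain. Pdgfa, the most abundant ligand gene, was at 22.8 ± 0.595 and 26.9 ± 6.55 FPKM (adjusted p = 0.444). Without knockout replicate 1, Pdgfa and Pdgfb were also called higher.

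Close relatives of the members did not share one direction. Of 18 paralogs, 3 rose, 8 fell and 7 did not pass the test, with a median log2 fold change of -0.03. Among GATA genes, Gata2 rose from 1.93 ± 0.378 to 12.4 ± 1.64 FPKM (limma adjusted p = 0.000552) and Gata3, a trophoblast factor gene, from 0.603 ± 0.330 to 5.17 ± 1.34 FPKM (adjusted p = 0.00318), so both exceeded the knockout mean of Gata4. Gata1 fell, and Gata5 was at 0.0467 ± 0.0231 and 0.230 ± 0.244 FPKM with overlapping libraries (adjusted p = 0.301). Foxa1, the relative of Foxa2, rose from 0.137 ± 0.0666 to 0.463 ± 0.120 FPKM (adjusted p = 0.0215). Among the relatives of Lrp2, Lrp1, Lrp4, Lrp5 and Vldlr fell, with Lrp5 losing its call under equal sums. Kit, a relative of Pdgfra, fell from 6.53 ± 0.891 to 1.15 ± 0.110 FPKM (adjusted p = 0.000867), and Dab1, the relative of Dab2, fell.

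Of the markers of other cell types, those of trophoblast mostly rose and those of pluripotent cells mostly fell. Most of the rest did not pass the test, but neither did most of all tested genes, of which 19.9% rose and 10.7% fell. Of 12 trophoblast markers, 7 rose, none fell (none at an unadjusted limma p below 0.05), and Tpbpa and Prl3d1 were at 0 in all libraries. Their summed level was 122.4 to 183.7 FPKM in the controls and 2220.5 to 4003.6 FPKM in the knockout libraries, most of it from the keratin genes Krt8, Krt18 and Krt7. Knockout replicate 1 was the lowest knockout library in this sum, as it was for Lrp2, Foxa2 and Dab2, but it was the highest for Gata4, Cubn and Amn. Of 10 pluripotency markers, 8 fell, none rose (1 at an unadjusted p below 0.05), and their summed level was 4810.0 to 5131.5 FPKM in the controls but 1413.6 to 2031.0 FPKM in the knockout libraries. Nanog fell from 79.2 ± 5.31 to 4.31 ± 0.641 FPKM. Of 10 definitive endoderm markers, which share Foxa1, Sox17, Hhex, Eomes and Cer1 with the other lists, 1 rose (Foxa1) and 1 fell (Trh), and their sum was 107.7 to 156.7 FPKM in the controls and 14.2 to 17.3 FPKM in the knockout libraries. Without Trh it was 10.04 to 13.04 and 9.23 to 11.58 FPKM, which overlap. Under median-ratio and upper-quartile scaling 1 gene of this list was higher and 3 were lower, with Cxcr4 and Hhex added. Of 10 cardiac mesoderm markers, a tissue that also uses Gata4 and Gata6, 3 rose (Nkx2-5, Myh7 and Hand2) and Myl7 fell, with sums of 6.63 to 8.16 and 11.3 to 14.2 FPKM. Most of the difference between these sums came from Nkx2-5, which rose from 0.693 ± 0.0643 to 5.47 ± 0.336 FPKM (adjusted p = 0.000598). Sums without Nkx2-5 were not taken, so no rise of the list as a whole is read from them. Of 10 fibroblast markers, which would report feeder cells that carry Pdgfra, 3 rose (Col3a1, Dcn and Twist1) and Thy1 fell, with sums of 15.25 to 21.95 FPKM in the controls and 13.0 to 15.6 FPKM in the knockout libraries. Without Thy1 the sums were 3.6 to 4 FPKM in the controls and 5.75 to 7.83 FPKM in the knockout libraries, all above the controls. At an unadjusted limma p below 0.05, 6 of the 10 were higher, but the share of all genes at that threshold was not taken. After adjustment 19.9% of all tested genes were higher. Only 2 of the 10 markers had at least 1 FPKM in 3 libraries. Lum and Postn were at 0 in all controls, and in the knockout libraries Lum was at 0.03, 0.12 and 0.17 FPKM and Postn at 0, 0.03 and 0.21 FPKM. Twist1 lost its call under median-ratio and upper-quartile scaling, and Dcn under the latter. The part of these other cell types in the members' levels was not tested.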

How the data were processed

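RNA was extracted with Trizol from 3 control (Rbbp4F/F) and 3 knockout (Rbbp4-/-) samples and made into TruSeq libraries, per the labels' protocols; groups come from the titles. HISAT2 2.1.0, RSEM, DESeq 1.26.0, FastQC and the build GRCm38.p6 appear, without roles, in the submitters' processing notes. Strand use and annotation release: not given in the sources used here. The values the authors deposited have no header and were read as FPKM, since they are not whole and sum to 697933 to 800146 per library. FPKM is a share of each library, so when abundant transcripts fall, others rise in value.

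Of 52872 rows per file, 2 held no gene identifier and were left out. GENCODE M21 matched 51719 of 51912 Ensembl identifiers. Depth came from low values of genes with 1 transcript, 85.2% to 88.5% of which lay within 0.15 of a whole fragment, and no count model was used. log2(FPKM + 1) was tested with limma 3.58.1 in R 4.3.3 (mean trend, group only, two-sided, Benjamini-Hochberg over all genes, threshold 0.05), on 13579 genes with at least 1 FPKM in 3 libraries and on all 26853 genes above 0 in any library. Members and lists are reported from the second, since a filter keeps low members only through the group where they are high. An exact permutation test of 3 against 3 libraries cannot go below p = 0.1 and was not used. The fit and the depth estimate were tested on simulated data.

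The members and lists were chosen with earlier results of these data known. Named genes are the members, Rbbp4, up to 3 called genes per list by smallest p (or the gene with the smallest p), and the 3 nearest genes of each filtered member; other genes were named after their values were seen, to complete small counts or as relatives of members. Values of some list genes are not reported here. Promoter sequences are RefSeq's (GRCm38.p6), from the first start listed for each gene. Alternatives were scaling, pseudocount, filter, replicate block, mean trend and each library left out.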

Additional observations from a re-analysis of the deposited data

How the results depend on the processing

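The number of members called higher without a filter was 6 under median-ratio, upper-quartile and equal-sum scaling, a pseudocount of 0.1, the replicate block and no mean trend, 5 to 7 when 1 library was left out, and 3 with the filter of 1 FPKM in 3 libraries, where only 4 members were tested. No member was called lower in any of these. Over all 13579 filtered genes, 4978 were called higher and 3051 lower, against 3627 and 4204 with median ratios, 3453 and 4402 with upper quartiles, 6080 and 2380 with equal sums, and 4231 to 5592 and 2436 to 3587 with 1 library left out. No pairing by replicate number was seen: the deviations of same-numbered libraries correlated at -0.00121, -0.00933 and 0.0492, and those of differently numbered libraries at -0.0721 to 0.0722. With 3 libraries per group, correlations this small cannot settle whether the numbers mark a shared culture. With the replicate block 4872 genes were higher and 2907 lower. In the lists beyond the members the block removed the calls of Rab7, Ihh, Ctsh, Fgfr1, Gata1, Lrp5, Vldlr, Myl7, Dcn and Twist1 and turned the sign of none. Without knockout replicate 1, Lamp2, Lgmn, Thbd, Dusp6, Klf4, Lhx1 and Lum gained a call in their lists and Twist1 lost one. The calls of Myl7 and Twist1 were lost in 8 and 9 of 14 alternatives. The filtered call of Dab2, which passes that filter only through its knockout libraries, was lost in 9 of 14 alternatives (adjusted p 0.00813 to 0.125). Apart from Rab7 under upper-quartile scaling, no called gene of the members or lists turned its sign under the scalings, the block or without knockout replicate 1. Gata6, Foxa2, Cubn and Pdgfra rest on 9 to 46 fragments per control library, which limits the precision of their ratios.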
